A study of Mus musculus with 7 samples.

Results

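The baseline RNA content of neonatal mouse islets was described from 3 control pools, chosen as the 3 libraries of the genotype Nrf2lox/lox out of 7 libraries in all. The series examined how Nrf2, the antioxidant-response regulator that the gene Nfe2l2 encodes, acts on β-cell proliferation shortly after birth. Each pool held total RNA of islets from 5 mice aged 7 days, depleted of ribosomal RNA before sequencing, although the titles number the libraries as single mice (1, 2 and 4). By their genotype label the controls carry the loxP-flanked Nfe2l2 allele, and the Cre recombinase sequence entry held 0 counts in each of them. They are therefore floxed animals rather than mice with an unmodified Nfe2l2 gene. The 4 libraries with a β-cell deletion of Nrf2 were not analysed here.

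Islets are small endocrine organs scattered through the exocrine pancreas. Their β-cells make insulin, their α-cells glucagon, their δ-cells somatostatin and their PP cells pancreatic polypeptide, while a few ε-cells make ghrelin. Capillary endothelium, pericytes, fibroblasts, macrophages and nerve endings lie among the endocrine cells, and isolated islets can carry acinar and ductal cells of the surrounding tissue. In the first weeks after birth β-cells divide more often than in the adult and are still acquiring the adult response to glucose.

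The 3 pools held 21603654, 24271929 and 25373105 counts over mouse genes, always given here in the order pool 1, pool 2, pool 4. They stood apart in 3 ways to keep in view for the levels below. Genes of the mitochondrial genome took 43.0%, 51.8% and 14.6% of the counts (mean 36.5% ± 19.4, SD, n = 3), so that the nuclear genome was left with 12314916, 11688553 and 21664045 counts. The 95% Wilson intervals of those shares, 43.0 to 43.0, 51.8 to 51.9 and 14.6 to 14.6, cover counting error only, as read copies made by PCR are not told apart. Structural noncoding RNAs also took unequal shares, as described below. The 4 Y-linked genes Ddx3y, Eif2s3y, Kdm5d and Uty summed to 0.546, 82.3 and 1.32 nuclear TPM, and Xist, the RNA that coats the inactive X chromosome, stood at 725, 17.96 and 559.7 nuclear TPM. Pool 2 was thus high for the Y-linked genes and low for Xist, and pools 1 and 4 were the reverse. The labels do not give the sex of the animals, and the part of sex, mitochondrial share or noncoding share in other differences between pools was not tested.

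Levels are given as nuclear TPM, the counts per base of a gene's annotated exons scaled to a fixed total over nuclear genes of at least 200 bases. Counts of genes that were highest or lowest in a pool, and of genes that differed by over 2-fold, use CPM of the nuclear counts scaled by trimmed means (TMM-scaled CPM). Single folds and sums between pools are on nuclear TPM unless TPM over protein-coding genes is named, and they move with the unequal noncoding share. Of 18018 nuclear genes with a mean of at least 1 CPM, 30.2%, 34.1% and 35.7% were highest and 33.9%, 35.9% and 30.1% lowest in pools 1, 2 and 4 on TMM-scaled CPM. On TPM over protein-coding genes, 36.6%, 46.6% and 16.7% of 14385 were highest and 21.6%, 22.7% and 55.7% lowest in those pools. Genes as a whole thus sat lower in pool 4 on the second scale, and the counts below are to be read against these shares. Values over the pools are means ± SD with n = 3. These 3 pools form 1 group, so no test was made and no p-value is given. In bulk RNA, fewer cells of a type and less RNA per cell cannot be told apart.

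The leading genes were those of islet endocrine cells. Ins2, Ins1, Gcg, Iapp, Ppy, Actb, Sst and Pyy were, in that order, the 8 protein-coding genes with the highest mean level, so 7 of the 8 encoded islet hormones or peptides. The 2 insulin genes together made up 8.82%, 5.42% and 16.1% of nuclear TPM, and the other hormone genes 3.25%, 3.40% and 8.13%. As a share of nuclear counts, without division by gene length, Ins1 and Ins2 held 3.34% (95% Wilson interval 3.33 to 3.35), 1.86% (1.86 to 1.87) and 5.79% (5.78 to 5.80). Pool 4 was highest and pool 2 lowest on each of these measures of insulin RNA. These intervals too cover counting error only and do not measure the spread between pools.

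Beside the hormones, a handful of noncoding RNAs made up much of nuclear TPM, though far less of the counts. Rn7sk, the RNA that restrains transcription elongation, Rpph1, the RNA of ribonuclease P, and Rmrp, the RNA of ribonuclease MRP, together took 22.2%, 18.4% and 7.22% of nuclear TPM. Rn7sk stood at 108958, 85697 and 50943 nuclear TPM, Rpph1 at 84370.5, 82268 and 13749.9 and Rmrp at 28825, 15554 and 7480.5. Pool 4 was the lowest pool for each of them, and the ratio of Rpph1 to Rn7sk within a pool was 0.774, 0.96 and 0.27, so they did not move in step. The entries Gm26917 (chr17:39843013-39846341, GRCm38) and Gm42418 (chr17:39846958-39848788) took a further 6.89%, 13.0% and 6.09%. Gm42418 overlaps the RefSeq 18S ribosomal RNA gene Rn18s-rs5 by 1245 bases and Gm26917 ends just before that gene, and whether these counts include ribosomal RNA left by the depletion was not tested. Malat1, a long nuclear RNA present in most cells, took 0.789%, 0.865% and 0.533%. Of all mouse gene counts, not divided by length, Rn7sk, Rpph1 and Rmrp together took only 1.30%, 0.834% and 0.607%. On that measure Gm26917 and Gm42418 took 4.14%, 6.05% and 5.13%.

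**Figure D1:**
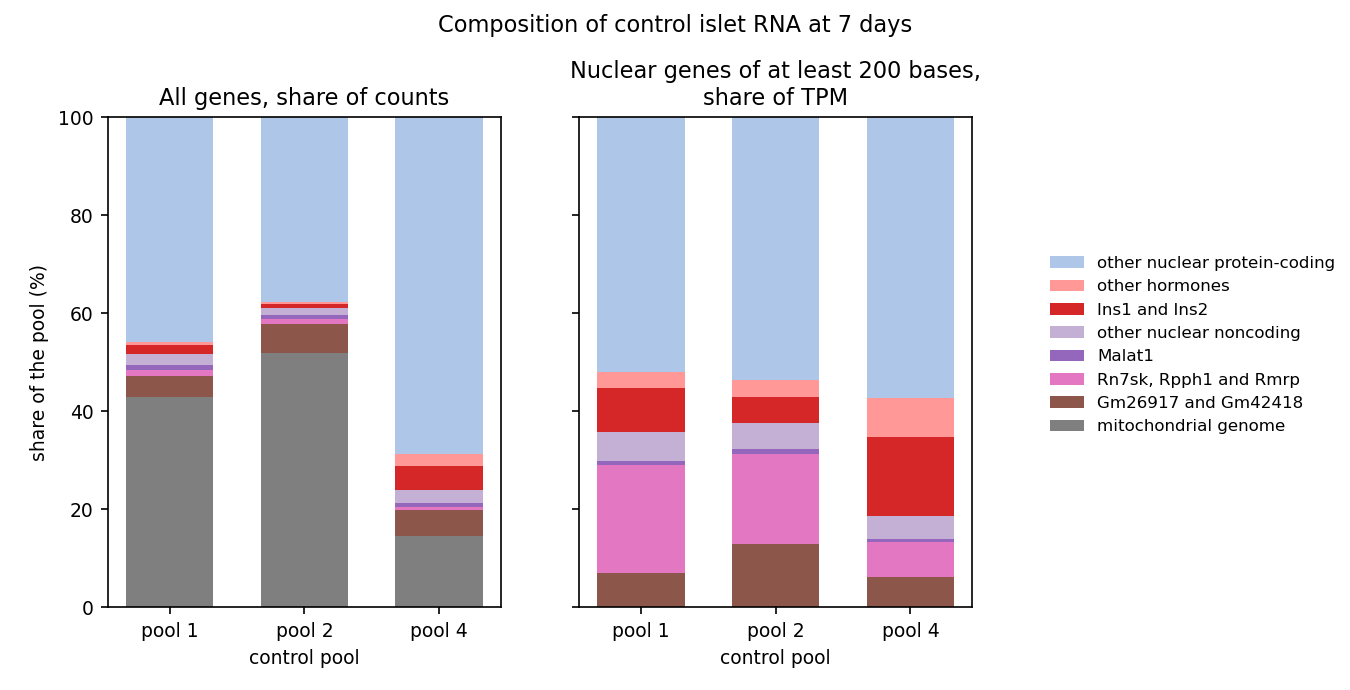
Composition of each control pool (x axis) as stacked shares in percent (y axis): left, of all mouse gene counts, right, of nuclear TPM. The mitochondrial segment of the left bars runs from 14.6% in pool 4 to 51.8% in pool 2, and the insulin segment of the right bars from 5.42% in pool 2 to 16.1% in pool 4.

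The remaining protein-coding genes held 52.1%, 53.6% and 57.2% of nuclear TPM (mean 54.3% ± 2.65), the steadiest large class. Breadth was similar too: 20256, 19920 and 20158 genes reached 1 nuclear TPM, 17863 of them in every pool, and 25, 32 and 40 genes reached 1000. The 10 genes with the highest mean took 39.2% of nuclear TPM over the pools, and 131, 128 and 177 genes sufficed for 50% of it. Among protein-coding genes alone, the number needed for 50% was 825, 920 and 346. The low number in pool 4 goes with its hormone share of 29.7% on the same protein-coding scale, against 18.8% and 14.1% in pools 1 and 2. Of nuclear TPM the hormone share was 24.2% in pool 4, against 12.1% and 8.82% in pools 1 and 2.

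**Figure D2:**
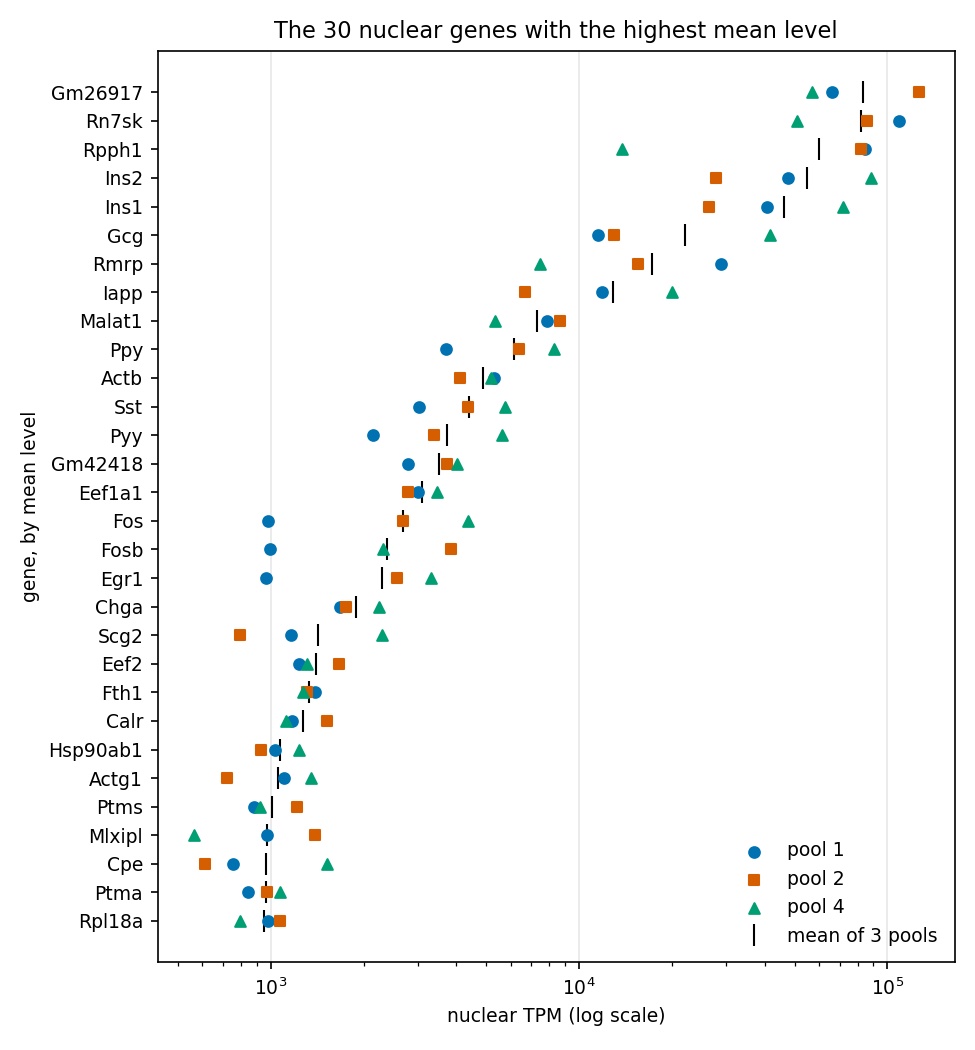
The 30 nuclear genes with the highest mean level (y axis) and their nuclear TPM in each pool on a log axis (x axis), with a black tick at the mean of the 3 pools. Hormone genes sit highest in pool 4 and the RNAs Rn7sk, Rpph1 and Rmrp lowest in pool 4, while Fos, Fosb and Egr1 are lowest in pool 1.

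The hormone genes spanned more than 4 orders of magnitude. Ins2 stood at 47677, 27772 and 88658 nuclear TPM (54702 ± 31045) and Ins1, the second mouse insulin gene, at 40536, 26396 and 71997 (46309.6 ± 23342). Ins2 was above Ins1 in all 3 pools, yet the ranges of both genes over the pools overlapped widely, and the ratio of Ins1 to Ins2 within a pool was 0.85, 0.95 and 0.812 (0.871 ± 0.0715). That ratio depends on gene length: the annotated exons total 1016 bases for Ins1 (chr19:52264323-52265456, GRCm38) and 1312 bases for Ins2 (chr7:142678656-142743381), and counts without division by length gave a mean of 0.674.

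Gcg, the glucagon precursor gene of α-cells, stood at 11516, 12982 and 41474 nuclear TPM (21991 ± 16889), with pool 4 more than 3 times as high as either other pool. Over protein-coding genes the same gene stood at 17956, 20783 and 50935 TPM, which put pool 4 2.84-fold above pool 1. Iapp, the amyloid polypeptide that β-cells store with insulin, stood at 11889.7, 6682 and 19939 nuclear TPM. Its level followed insulin closely: the ratio of Iapp to the summed insulin genes was 0.135, 0.123 and 0.124. The same ratio for Gcg was 0.131, 0.24 and 0.258, lowest in pool 1 and differing by 1.98-fold between pools.

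Ppy, the pancreatic polypeptide of PP cells, stood at 3708, 6394 and 8276 nuclear TPM and Sst, the somatostatin of δ-cells, at 3026, 4363 and 5766. Pyy, peptide YY, which several islet cell types make around birth, stood at 2152, 3392 and 5614 nuclear TPM. All 3 genes were lowest in pool 1 and highest in pool 4 on nuclear TPM, whereas insulin was lowest in pool 2. On TPM over protein-coding genes Ppy stood at 5782, 10236 and 10164, so that pools 2 and 4 changed places. Relative to insulin within a pool, Ppy came to 0.042, 0.118 and 0.0515 and Sst to 0.0343, 0.0805 and 0.0359, highest in pool 2 for both. Ppy, Sst and Pyy kept this order in every pool, but their ranges over the pools overlapped.

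A clear gap followed below Pyy. Npy, neuropeptide Y, a gene of immature β-cells, stood at 135, 134 and 94.2 nuclear TPM, so the lowest Pyy value was above the highest Npy value. Ghrl, the ghrelin gene of ε-cells, stood at 84.5, 58.96 and 158 nuclear TPM, and its ratio to insulin varied little at 0.000958, 0.00109 and 0.000983. Cck (cholecystokinin) had 39, 13 and 28 counts and Gast (gastrin) 1, 0 and 12. The Gast values of pools 1 and 2 lie under the limit of 3 counts that a count of 0 allows, which was 0.244, 0.257 and 0.138 CPM of nuclear counts.

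The promoter sequences used held no entry for Ins2, so Ins1 is shown for β-cells although Ins2 was above it in all 3 pools. The sequences just before the starts of 4 hormone genes, 1 each of β-, α-, δ- and PP cells, are shown. They are the 250 bases before the RefSeq start on GRCm38.p6, for Ins1 chr19:52264047-52264296 on the plus strand, Gcg chr2:62483654-62483903, Sst chr16:23890845-23891094 and Ppy chr11:102101320-102101569 on the minus strand, each written 5′ to 3′ in the direction of the gene. Capitals mark matches, on either strand, to motifs of 4 kinds. The TATA box, which helps to fix the start of transcription, was searched as TATAAA. The form of the E-box (in general CANNTG) that factors of the NeuroD1 type bind was searched as CATCTG. The core of homeodomain sites, such as those of Pdx1 and Pax6, was searched as TAAT. The cAMP response element was searched as TGACGTCA.
Ins1: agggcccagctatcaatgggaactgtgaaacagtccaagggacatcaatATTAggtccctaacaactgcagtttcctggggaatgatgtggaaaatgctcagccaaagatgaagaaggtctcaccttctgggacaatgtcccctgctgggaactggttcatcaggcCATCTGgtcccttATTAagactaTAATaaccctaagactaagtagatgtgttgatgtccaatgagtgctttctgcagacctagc
Gcg: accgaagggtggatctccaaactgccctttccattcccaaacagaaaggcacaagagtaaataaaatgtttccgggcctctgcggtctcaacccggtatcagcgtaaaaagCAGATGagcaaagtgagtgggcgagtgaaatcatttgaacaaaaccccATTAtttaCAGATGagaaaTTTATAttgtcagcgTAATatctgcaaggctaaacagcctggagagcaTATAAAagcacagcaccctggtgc
Sst: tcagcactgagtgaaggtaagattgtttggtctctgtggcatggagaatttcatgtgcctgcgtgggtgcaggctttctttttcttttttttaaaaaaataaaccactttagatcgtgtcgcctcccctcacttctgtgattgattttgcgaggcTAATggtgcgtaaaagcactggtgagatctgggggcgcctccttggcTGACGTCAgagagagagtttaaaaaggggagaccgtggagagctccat
Ppy: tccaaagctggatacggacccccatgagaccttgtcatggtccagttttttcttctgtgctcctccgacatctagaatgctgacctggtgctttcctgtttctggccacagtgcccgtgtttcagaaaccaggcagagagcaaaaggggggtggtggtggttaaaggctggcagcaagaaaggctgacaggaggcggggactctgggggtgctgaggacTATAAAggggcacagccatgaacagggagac
Ins1 held the E-box form at 84 to 79 bases before the start and 3 copies of the homeodomain core. Gcg held 2 copies of the E-box form on the opposite strand, at 139 to 134 and at 83 to 78 bases, 2 copies of the homeodomain core, and 2 TATA boxes, at 24 to 19 bases and, on the opposite strand, at 72 to 67 bases. Sst held the full cAMP response element at 48 to 41 bases and 1 homeodomain core, and Ppy held a TATA box at 31 to 26 bases. Of 27025 RefSeq genes with a window of the same length, 1.62% held the cAMP response element, 13.0% the TATA box, 14.5% the E-box form, 55.3% the homeodomain core and 66.0% some E-box of the general form, which includes every match to the special form. A match is a description of the letters only, and Ins2 is named without a sequence.

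Genes of the secretory granule were among the highest after the hormones. Chga (chromogranin A) stood at 1675, 1755 and 2237 nuclear TPM and Scg2 (secretogranin II) at 1165, 794 and 2297, both among the 15 highest protein-coding genes. Cpe, the carboxypeptidase that trims prohormones, stood at 756, 612 and 1516 nuclear TPM. Scg3 and Chgb averaged 619 and 361 nuclear TPM, and Pcsk1n, which encodes the proSAAS inhibitor of prohormone convertases, averaged 765.

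The convertases themselves differed in level. Pcsk2 stood at 694, 515 and 1148 nuclear TPM and Pcsk1, which makes the first cut of proinsulin, at 142, 96.7 and 307, a ratio within a pool of 4.88, 5.32 and 3.74. Ptprn, the granule membrane protein IA-2, had 625, 579.5 and 427 nuclear TPM and was the exception in being lowest in pool 4. Of the 15 genes of granins and prohormone processing, 13 were highest in pool 4 on TMM-scaled CPM (35.7% of all nuclear genes) and 10 on TPM over protein-coding genes (16.7%), and the list's median deviation from each gene's mean was -0.22, -0.33 and 0.59 log2 units. Of these genes 7 of 15 differed by over 2-fold between the highest and lowest pool, beside 1133 of 7439 (15.2%) of all nuclear genes with a mean of at least 20 TMM-scaled CPM.

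The transcription factors that specify islet cells were detected in every pool, except Pax4. Neurod1, a helix-loop-helix activator of the insulin gene, led the list by mean at 438, 313 and 561 nuclear TPM, followed by Nkx6-1, a β-cell homeodomain factor, at 329, 369 and 474, which was above it in pool 2. Insm1, Pax6, Rfx6, Isl1 and Nkx2-2 averaged 230.3, 149.6, 149, 134 and 132 nuclear TPM, and Pdx1, the pancreatic master regulator, averaged 103 ± 34.5. Pax6 and Rfx6 varied least of these, with SDs of 9.94 and 9.91 nuclear TPM.

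Factors of α-cells were far lower than their hormone. Irx1, Irx2 and Pou3f4 averaged 18.97, 15.4 and 8.50 nuclear TPM. Hhex, the δ-cell factor, stood at 28.2, 36.2 and 41.9. Neurog3, the factor of endocrine progenitors, was still detected at 4.74, 10.4 and 15.1 nuclear TPM from 29, 55 and 154 counts, whereas Pax4 had 0, 3 and 0 counts. The 24 factors summed to 2175, 2231 and 2929 nuclear TPM, and to 3391, 3572 and 3597 TPM when only protein-coding genes form the denominator, a spread of 1.06-fold. The summed level of these regulators was thus nearly equal in the pools on that scale, while hormone RNA on the same scale stood at 188244, 141161 and 297182 TPM. Genes as a whole sat lower in pool 4 on that scale, however. Of 23 factors with a mean of at least 1 CPM, 18 were highest in pool 4 on TMM-scaled CPM (35.7% of all nuclear genes). On TPM over protein-coding genes 10 were highest there (16.7%).

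Mafa, an activator of the insulin gene that rises as mouse β-cells mature, stood at 50.2, 57.02 and 71.2 nuclear TPM. Ucn3 (urocortin 3), a late marker of mature β-cells, stood at 155, 129 and 297 nuclear TPM, already rank 378 among protein-coding genes.

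The machinery that couples glucose to insulin release was present from entry to exocytosis. Slc2a2, the glucose transporter GLUT2, stood at 115, 125 and 269.9 nuclear TPM. G6pc2, the islet glucose-6-phosphatase catalytic subunit, stood at 652, 513 and 1301. Of the subunits of the ATP-sensitive potassium channel, the sulfonylurea receptor gene Abcc8 stood at 794, 1035 and 576 nuclear TPM. The pore gene Kcnj11 stood at 125, 82.5 and 123.

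Slc30a8, the zinc transporter of insulin granules, had the highest mean of the list, at 875, 745 and 1119 nuclear TPM, although Abcc8 was above it in pool 2 and G6pc2 in pool 4. The calcium channel genes Cacna1d and Cacna1c averaged 148 and 59.8, and the incretin receptor genes Glp1r and Gipr averaged 293 and 183. Of the release machinery, Vamp2, Syt7, Snap25 and Stx1a averaged 259, 223, 97.95 and 39.7 nuclear TPM. Gjd2, the connexin that joins β-cells electrically, stood at 171, 112 and 329 and Ffar1, a fatty acid receptor, at 76.7, 57.6 and 135. The 21 genes summed to 4457, 4379 and 5774 nuclear TPM, a spread of 1.32-fold. Over protein-coding genes they summed to 6949, 7009.5 and 7091 TPM, a spread of 1.02-fold. On TMM-scaled CPM 12 of the 21 were highest in pool 4 (35.7% of all nuclear genes) and 12 lowest in pool 2 (35.9%). Of the single members 8 of 21 differed by over 2-fold between pools (15.2% of all nuclear genes).

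The members did not share 1 order. G6pc2, Slc2a2, Gjd2, Ffar1 and Rab27a were highest in pool 4, whereas Abcc8, Gipr, Cacna1d and Stx1a were highest in pool 2 and lowest in pool 4. The 12 genes taken as signs of β-cell maturity summed to 3902, 3688 and 5157 nuclear TPM, and to 6084, 5904 and 6334 TPM over protein-coding genes. Among further genes of immature cells, Cd24a stood at 96.5, 108 and 183 nuclear TPM, Dlk1 at 51.7, 23.7 and 43.2, and Sox4 and Sox11 averaged 36.2 and 9.80. The 10 genes of that list together summed to 2588, 3853 and 6189 nuclear TPM, of which Pyy alone made up most.

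Adult β-cells keep a set of housekeeping genes unusually low, often called disallowed genes. Ldha (lactate dehydrogenase A) stood at 52.3, 16.7 and 15.7 nuclear TPM and Slc16a1 (the lactate and pyruvate carrier MCT1) at 6.60, 4.20 and 2.63. Both were highest in pool 1. Higher members were Zfp36l1 at 169.9, Igfbp4 at 136 and Zyx at 94.1 nuclear TPM on average, which other islet cells also express. The 21 genes summed to 881, 889 and 605 nuclear TPM. 15 of the 21 were lowest in pool 4 on TMM-scaled CPM (30.1% of all nuclear genes) and 20 on TPM over protein-coding genes (55.7%), and the median deviations were 0.14, 0.15 and -0.36 log2 units, opposite in sign to the granule genes in all 3 pools. Fibroblast and matrix markers, which were also lowest in pool 4, are given below, and their part in this was not tested.

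Other endocrine markers were also highest in pool 4. All 9 α-cell markers had their highest TMM-scaled CPM there, and on TPM over protein-coding genes all except Gc did, beside 35.7% and 16.7% of all genes on these scales. Ttr (transthyretin) stood at 533, 475 and 1171, Slc7a2 (an arginine transporter) at 78.5, 98.4 and 142 and Gc (vitamin D binding protein) at 19.7, 30.5 and 35.6 nuclear TPM. The α-cell list summed to 12273, 13766 and 43102 nuclear TPM, and 19136, 22037 and 52934 over protein-coding genes, nearly all of it from Gcg. All 4 δ-cell markers were also highest in pool 4 on TMM-scaled CPM and 3 of 4 on TPM over protein-coding genes, with Rbp4 (retinol binding protein) at 100.4, 82.6 and 198 and Ghsr, the ghrelin receptor, at 2.67, 4.72 and 10.02 nuclear TPM. The δ-cell list summed to 3157, 4486 and 6016 and the list of PP and ε-cell genes to 5945, 9845 and 14048 nuclear TPM, of which the hormones Sst and Ppy gave most. Slc7a2, Ttr and Rbp4 are not exclusive to these cells.

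Endothelial markers were among the steadiest of the non-endocrine lists. The 16 endothelial markers summed to 1679, 1627 and 1494 nuclear TPM (1599.8 ± 95.6), a spread of 1.12-fold, and 1.43-fold over protein-coding genes. Cdh5, the endothelial cadherin, stood at 345, 303 and 247 nuclear TPM, Plvap, of fenestrated capillaries, at 249.7, 276 and 334, and Eng (endoglin) at 260.2, 269 and 244. Pecam1, Kdr and Flt1 averaged 169.9, 97.5 and 66.2. Vwf was low at 5.65, 8.19 and 8.92.

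Pericyte and smooth muscle markers were as abundant but less even. Rgs5, a pericyte regulator of G-protein signalling, led at 760.2, 1259 and 437 nuclear TPM, followed in mean level by Notch3 at 107, 256 and 90.6, Mcam at 159, 177 and 121 and Acta2 (smooth muscle actin) at 152, 183 and 98.8. 10 of the 12 markers were highest in pool 2 (34.1% of all nuclear genes) and 11 lowest in pool 4 (30.1%), and 7 of 9 differed by over 2-fold between pools (15.2%). The list summed to 1446, 2282 and 931 nuclear TPM.

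Fibroblast and matrix genes were lowest in pool 4 without exception. Col1a1, a chain of type I collagen, stood at 388, 297 and 124 nuclear TPM, Col3a1 at 191, 171 and 70.8 and Dcn (decorin) at 217, 103 and 38.5. All 14 of 14 markers had their lowest value in pool 4, beside 30.1% of all nuclear genes on TMM-scaled CPM and 55.7% on TPM over protein-coding genes. Of those with a mean of at least 20 CPM, 8 of 10 differed by over 2-fold (15.2% of all). The list summed to 1180.5, 913 and 397 nuclear TPM, 2.97-fold from the lowest to the highest pool, and 3.77-fold over protein-coding genes. Collagen genes as a family (44 genes, matched by symbol after the values were seen) summed to 2793, 3082 and 1998 nuclear TPM, with 29 of 43 lowest in pool 4 (30.1% of all nuclear genes).

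Acinar markers had the largest spread in sum among the cell type lists. Ctrb1 (chymotrypsinogen B) stood at 808, 342 and 118 nuclear TPM, Pnliprp1 (a lipase-related protein) at 298, 92.4 and 26.03, Clps (colipase) at 311, 213 and 88.7, while Cel (carboxyl ester lipase) averaged 108 ± 108. Each of these was highest in pool 1 and lowest in pool 4. The 30 acinar markers summed to 2434, 1058 and 473 nuclear TPM, or 0.132% ± 0.101 of the total, so they were a small part of the RNA in every pool. 21 of 24 markers with a mean of at least 1 CPM were highest in pool 1 (30.2% of all nuclear genes), 18 were lowest in pool 4 (30.1%), and 5 of 7 differed by over 2-fold (15.2%).

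Not all acinar markers followed. Pla2g1b, a phospholipase, stood at 3.18, 6.52 and 9.74 and Rbpjl, an acinar transcription factor, at 1.49, 3.75 and 6.90 nuclear TPM, both highest in pool 4, and Gatm, an enzyme of creatine synthesis, at 57.1, 37.3 and 60.99. Bhlha15, the factor Mist1 of secretory cells, was even at 22.7, 19.04 and 21.01. The acinar factor Ptf1a had 0, 4 and 0 counts. The trypsinogen genes Prss2, Try4, Try5 and Try10 resemble each other closely, so their separate values, of which Prss2 was the highest at 148, 55.2 and 18.2, are uncertain.

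Ductal markers, by comparison, were nearly equal in the pools on nuclear TPM, at 909, 975 and 956, a spread of 1.07-fold. Over protein-coding genes they summed to 1417, 1561 and 1174 TPM, a spread of 1.33-fold with pool 4 lowest. Most of the ductal sum came from 2 keratin genes that many epithelial cells share. Krt8 stood at 307, 374 and 303 nuclear TPM. Krt18 stood at 291, 336 and 285. The more specific Krt19 stood at 20.2, 6.58 and 6.84 nuclear TPM, Sox9 at 16.8, 17.00 and 16.7 and Cftr, the chloride channel of ducts, at 0.941, 0.224 and 0.486.

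Blood and immune cells contributed little. Erythroid genes summed to 874, 1094 and 577 nuclear TPM over the 7 of 10 listed genes that were found, with all 7 highest in pool 2 (34.1% of all nuclear genes) and lowest in pool 4 (30.1%). The hemoglobin gene Hbb-bs stood at 269, 298 and 161 nuclear TPM. Hba-a1 stood at 275, 385 and 196, although Hba-a1 and Hba-a2 are near-identical copies and their split is uncertain. Alas2, the erythroid heme synthesis enzyme, stood at 129, 173 and 98.9.

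All 14 macrophage markers were highest in pool 1 (30.2% of all nuclear genes) and the list summed to 367, 216 and 176 nuclear TPM. The highest of them in pool 1 was Fcer1g, an Fc receptor chain, at 59.4, 36.6 and 34.6. Cd68 stood at 55.7, 30.7 and 25.4 and the complement gene C1qb at 58.8, 28.3 and 21.4. Lymphocyte markers summed to only 23.3, 23.1 and 27.8 nuclear TPM. Among them the B-cell gene Cd79a was the highest at 8.82, 10.8 and 13.9, and the T-cell genes Cd3e and Cd3d averaged 0.801 and 0.246. Neutrophil and mast cell genes summed to 14.9, 46.5 and 27.3, led by S100a8 at 9.44, 27.6 and 15.5, with Elane at 0 counts in every pool and the mast cell genes Cma1 at 0, 11 and 0 counts and Cpa3 at 0, 14 and 4 counts.

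Nerve and rare cell types were detected at low levels. Schwann and glial genes summed to 107, 158 and 118 nuclear TPM, with Sox10 at 14.2, 30.1 and 13.2, and 8 of 9 were highest in pool 2 (34.1% of all nuclear genes). Neuronal genes summed to 121, 175 and 225, led by Tubb3 at 43.3, 61.4 and 89.3 and Th (tyrosine hydroxylase) at 42.7, 38.7 and 65.9, which endocrine cells can also express. Mesothelial genes summed to 77.9, 48.6 and 57.96 nuclear TPM, most of it from Msln, and hepatocyte genes to 137, 254 and 197, of which Alb (albumin) gave 78.2, 163 and 118. Adipocyte genes were close to absent at 2.21, 4.79 and 2.90, and Plin1 had 0, 0 and 1 counts. The non-endocrine lists for acinar, ductal, endothelial, pericyte, fibroblast, macrophage, lymphocyte, glial and erythroid cells together held 0.751% of nuclear TPM on average, against 15.03% for the hormone genes; marker lists of different cell types differ in size and abundance, so these sums are not cell shares.

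**Figure D3:**
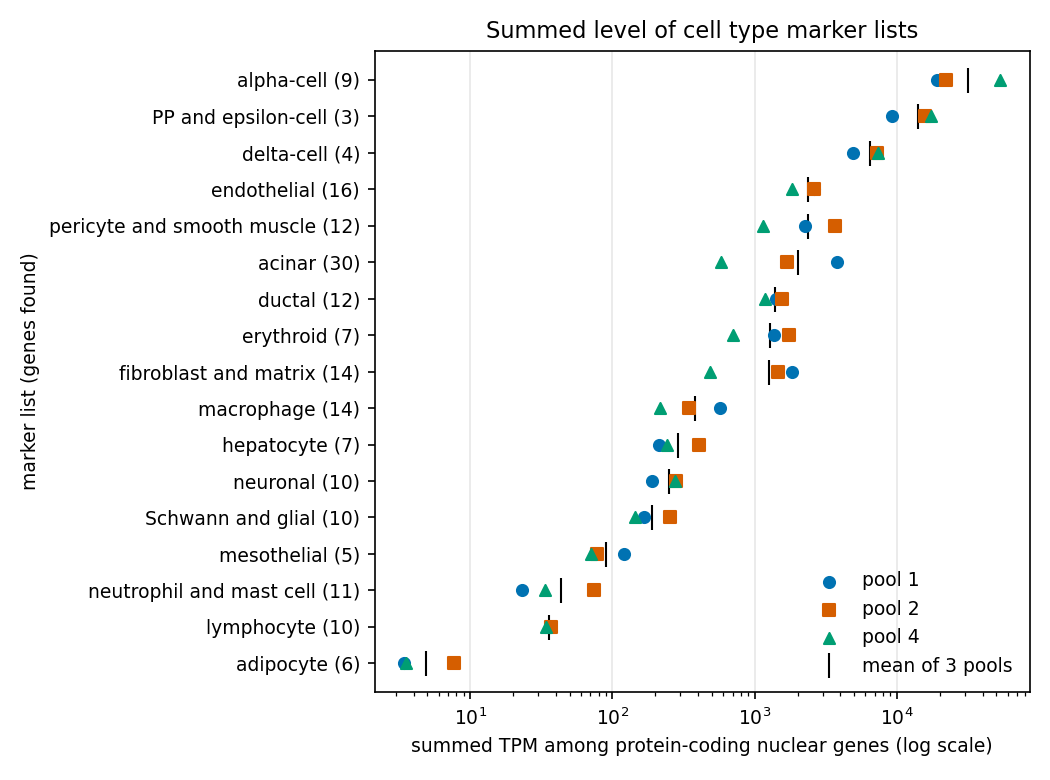
Summed TPM of each marker list over protein-coding nuclear genes (x axis, log scale) in each pool, ordered by mean, with the number of genes found in brackets (y axis). Acinar markers run from 581 in pool 4 to 3795 in pool 1, while endothelial markers stay between 1834 and 2618.

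Proliferation genes were clearly detected. Mki67, which encodes the Ki-67 protein of cycling cells, stood at 84.5, 111 and 126 nuclear TPM, far above the other cell cycle genes. Pcna, a clamp of DNA replication, stood at 41.5, 26.7 and 57.5, Tk1 (thymidine kinase) at 24.2, 45.8 and 29.8, Ccna2 (cyclin A2) at 21.97, 28.7 and 47.2 and Top2a at 19.8, 15.8 and 29.4. Cdk1, the mitotic kinase, stood at 9.07, 12.2 and 15.2 nuclear TPM.

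The 30 cell cycle genes summed to 496, 589 and 791 nuclear TPM (625 ± 151). 26 of the 30 were highest in pool 4 (35.7% of all nuclear genes) and 22 lowest in pool 1 (33.9%), with median deviations of -0.34, -0.09 and 0.41 log2 units. Of them 4 of 17 differed by over 2-fold, near the 15.2% of all genes at that level. On TPM over protein-coding genes 19 of the 30 were highest in pool 4 (16.7% of all) and 22 lowest in pool 1 (21.6%). Replication-dependent histone genes of the Hist clusters (65 genes, matched by symbol after the values were seen) summed to 3865, 5016 and 6385 nuclear TPM, lowest in pool 1 on both denominators. Such a summed level does not say which cell type was dividing.

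Among the regulators that set the entry into the cycle, Ccnd2 (cyclin D2), the main D cyclin of mouse β-cells, was the highest at 323, 248 and 437 nuclear TPM. Ccnd1 stood at 58.7, 108 and 100.2 and Ccnd3 at 9.36, 10.5 and 12.2, and the ratio of Ccnd2 to Ccnd1 within a pool was 5.51, 2.29 and 4.36. Cdk4, the partner kinase, was even at 91.2, 89.05 and 86.8 (89.01 ± 2.21), while Cdk6 averaged 16.9. Of the inhibitors, Cdkn1a (p21), Cdkn1b (p27) and Cdkn1c (p57) averaged 75.6, 59.1 and 59.7 nuclear TPM. Cdkn2a, whose p16 product accumulates with age, had 1, 0 and 4 counts, under the limit of 3 counts in pools 1 and 2.

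Imprinted genes, of which only 1 parental copy is active, held a larger share of the RNA than the non-endocrine lists of any single cell type, at 4869, 4685 and 3626 nuclear TPM for 23 genes. Peg3 had the highest mean, at 720.4, 942 and 712 nuclear TPM, followed by the noncoding Meg3, which was above it in pool 1, at 757, 909 and 428, Nnat (neuronatin), which acts in insulin processing, at 702, 478 and 697, and H19 at 673, 553 and 249. Igf2, the fetal growth factor next to H19 on chromosome 7, stood at 561, 521 and 233.

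Igf2 and H19 varied over the pools together, both lowest in pool 4, and their ratio within a pool was 0.834, 0.944 and 0.938 (0.905 ± 0.0616). Rian and Mirg, noncoding RNAs of the Meg3 locus, averaged 196 and 95.1 nuclear TPM, Plagl1 159.5 and Grb10 97.96. Peg10 went the other way, with 66.1, 94.4 and 244. Snurf was listed at 0 counts in every pool; it shares its transcript with Snrpn, which stood at 26.6, 36.5 and 49.04, so how reads were divided between them is uncertain.

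Nfe2l2, the gene flanked by loxP sites in these mice (chr2:75675513-75704641, GRCm38), had 1517, 655 and 1460 counts. It stood at 101, 50.1 and 58.1 nuclear TPM (69.6 ± 27.2), rank 1780 among protein-coding genes by mean, highest in pool 1. Keap1, which holds the Nrf2 protein in the cytoplasm and marks it for degradation, stood at 22.4, 14.2 and 21.8, and Nfe2l2 exceeded it by 4.49, 3.52 and 2.67-fold within a pool. Since Nrf2 is controlled mainly as a protein, these RNA levels do not give its activity.

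Classic Nrf2 targets were low to moderate. Hmox1 (heme oxygenase 1) stood at 229.7, 51.1 and 65.6 nuclear TPM, with pool 1 4.49-fold above pool 2, and Srxn1 (sulfiredoxin) at 106, 44.8 and 68.8. Txnrd1 (thioredoxin reductase) stood at 83.2, 68.8 and 108, and Nqo1, a quinone reductase, at 9.41, 4.86 and 16.4. Of the subunits of the glutathione-making ligase, Gclc stood at 49.7, 47.9 and 42.9 and Gclm at 35.5, 21.9 and 38.3. Slc7a11, the cystine carrier, had 306, 29 and 148 counts. Hmox1, Srxn1, Slc7a11 and Nfe2l2 itself were each highest in pool 1, whereas Txnrd1, Nqo1 and Gclm were highest in pool 4. Of the 24 Nrf2 pathway and antioxidant genes, 7 were highest in pool 1 (30.2% of all nuclear genes) and 16 in pool 4 (35.7%) on TMM-scaled CPM. On TPM over protein-coding genes 12 were highest in pool 1 (36.6%) and 8 in pool 4 (16.7%).

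General antioxidant enzymes were higher. Gpx3, a secreted glutathione peroxidase, led at 342, 417 and 798 nuclear TPM and Sod1 (superoxide dismutase 1) followed at 211, 208 and 325. Prdx1, Gpx1, Sod2 and Gpx4 averaged 95.6, 85.3, 74.8 and 46.3. Cat (catalase), known as low in β-cells, stood at 28.4, 36.4 and 32.5. Gpx1 was among the steadiest of all genes at 87.1, 84.3 and 84.5. The 24 genes summed to 1854, 1519.7 and 2343 nuclear TPM, highest in pool 4, but to 2890.0, 2433 and 2878 over protein-coding genes, on which pool 1 was highest by a small margin.

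Folding of secretory proteins in the endoplasmic reticulum (ER) was represented by many abundant genes. Calr (calreticulin) stood at 1168, 1517 and 1120.1 nuclear TPM, Hsp90b1 (GRP94) at 763, 1011 and 906 and Hspa5 (BiP) at 674, 928 and 1011. The disulfide isomerase genes P4hb, Pdia3 and Pdia4 averaged 510.4, 409 and 283, and Ero1lb, the β-cell oxidase of the ER, averaged 346. Herpud1, which takes part in ER-associated degradation, stood at 360.1, 649 and 391.

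Of the unfolded protein response, Atf4 was at 579.8, 458 and 612 nuclear TPM, Xbp1 at 303, 299 and 266 and Ddit3 (CHOP) at 189, 309 and 197. Trib3, a target of ATF4, stood at 52.4, 12.99 and 11.02, 4.76-fold higher in pool 1 than in pool 4. The 20 genes summed to 6937, 7349.7 and 8376 nuclear TPM and to 10816, 11766 and 10286 over protein-coding genes. By sum the highest pool was thus pool 4 on the first scale and pool 2 on the second, with a spread of at most 1.21-fold. Most single members differed from the second sum: 12 of the 20 were lowest in pool 2 on TPM over protein-coding genes (22.7% of all), and 7 were highest there (46.6%). On TMM-scaled CPM 12 were lowest in pool 2 (35.9%) and 12 highest in pool 4 (35.7%).

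Immediate early genes, which cells switch on within minutes of a stimulus or of handling, were among the most abundant transcripts. Fos stood at 981, 2683 and 4361 nuclear TPM, Fosb at 997, 3840.1 and 2316 and Egr1 at 965, 2574 and 3318, ranks 10, 11 and 12 among protein-coding genes by mean. All 11 genes of the list differed by over 2-fold between the highest and lowest pool, beside 15.2% of all nuclear genes. 10 of the 11 were lowest in pool 1 (33.9% of all), the exception being Ier3, which was highest there at 282, 135 and 153.

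The ratio of Fos to Actb, a cytoskeletal actin gene, was 0.186, 0.651 and 0.84 within a pool. The 11 genes summed to 5707, 12986 and 16219 nuclear TPM and to 8898, 20789.5 and 19918 over protein-coding genes, so pools 2 and 4 changed places between the scales while pool 1 stayed lowest on both. Jun, Nr4a1, Junb and Atf3 averaged 856, 796, 689 and 496. Cytosolic heat shock genes, listed after the values were seen, were highest in pool 4 in 6 of 8 cases on TMM-scaled CPM (35.7% of all) and in 4 on TPM over protein-coding genes (16.7%), with Hspa1b at 548, 605 and 1067 and Dnajb1 at 319, 371 and 964. The part of isolation and handling of the islets in these levels was not tested.

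The mitochondrial genes analysed here were 13 mRNAs and 22 tRNAs, and mitochondrial ribosomal RNAs were not analysed here. Of the counts of these 35 genes, the mRNAs held 99.5%, 99.4% and 99.4%. mt-Co1, a core subunit of cytochrome c oxidase, had 2950140, 3862944 and 1181576 counts, mt-Nd5, of complex I, 1943743, 2729059 and 767217, and mt-Nd1 1334542, 1816608 and 535544. The makeup within the mitochondrial genome was alike in the pools even though its total differed: mt-Co1 took 31.8%, 30.7% and 31.9% of mitochondrial counts and mt-Cytb 11.9%, 11.7% and 12.1%.

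The adjoining genes mt-Co2, mt-Atp8, mt-Atp6, mt-Co3, mt-Nd3 and mt-Nd4l were listed far lower, with 1152, 1510 and 449 counts for mt-Co2. A near-identical copy of this stretch lies in the nuclear genome, and the treatment of reads that match in several places was not given in the sources used here, so their values are uncertain. Regulators of mitochondrial biogenesis were low. Ppargc1a (PGC-1α) stood at 4.66, 1.63 and 1.88 nuclear TPM, Tfam, which packages and transcribes mitochondrial DNA, at 6.02, 4.78 and 8.13, and Nrf1 at 8.63, 5.42 and 6.32.

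The 14 biogenesis genes summed to 140.1, 129 and 141 nuclear TPM, a spread of 1.09-fold. Over protein-coding genes they summed to 218.5, 206.6 and 172.6 TPM, a spread of 1.27-fold with pool 4 lowest. On that scale 10 of the 14 were lowest in pool 4 (55.7% of all), while on TMM-scaled CPM 8 were lowest in pool 2 (35.9%). The mitochondrial share ran from 14.6% to 51.8%, and its relation to these genes was not tested. Nuclear-encoded genes of the respiratory chain (83 genes, matched by symbol after the values were seen) summed to 3512, 3072 and 4571 nuclear TPM. Over protein-coding genes they summed to 5476, 4918 and 5614 TPM, a spread of 1.14-fold. On TMM-scaled CPM 65 of 79 were highest in pool 4 (35.7% of all nuclear genes). On TPM over protein-coding genes 33 were highest in pool 4 (16.7%) and 32 in pool 1 (36.6%). Any link of these genes to the mitochondrial share, which was lowest in pool 4, was not tested. Cytosolic ribosomal protein genes (80 genes, matched in the same way) summed to 15644, 14478 and 15711 nuclear TPM, and 0 of their 68 members with a mean of at least 20 TMM-scaled CPM differed by over 2-fold. Which pool was highest for them changed from pool 4 to pool 1 with the protein-coding denominator.

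Neat1, Tug1 and Gas5 were more even than the short structural RNAs. Neat1 stood at 93.6, 137 and 133 nuclear TPM, Tug1 at 64.6, 54.7 and 84.1 and Gas5 at 25.2, 22.2 and 22.1. Mir375, the gene of an abundant islet microRNA, is annotated with 64 bases (chr1:74900658-74900721), below the length limit, and had 12, 8 and 7 counts. It was chosen after its values were seen.

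Across 20430 genes the pools correlated at Pearson's r of 0.912 (pools 1 and 2), 0.933 (1 and 4) and 0.930 (2 and 4) on log2(nuclear TPM + 1). Genes are not independent replicates, so these are descriptions. The common biological coefficient of variation between the pools was 0.327 over 18018 genes. The median gene differed by 1.49-fold between its highest and lowest pool, 68 genes by more than 4-fold and 10 by more than 10-fold. Of the 1133 genes over 2-fold, 310, 424 and 399 (27.4%, 37.4% and 35.2%) were highest in pools 1, 2 and 4. Of all 7439 genes at that level, 23.3%, 37.0% and 39.6% were highest in those pools, so the shares were alike. In the same order 281, 386 and 466 of the 1133 (24.8%, 34.1% and 41.1%) were lowest, beside 33.9%, 35.9% and 30.1% of the 18018 genes with a mean of at least 1 CPM. No single pool was highest or lowest for most of them. Leaving out pool 1, 2 or 4, which leaves 2 values per gene, gave 665, 469 and 416 genes over 2-fold.

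**Figure D4:**
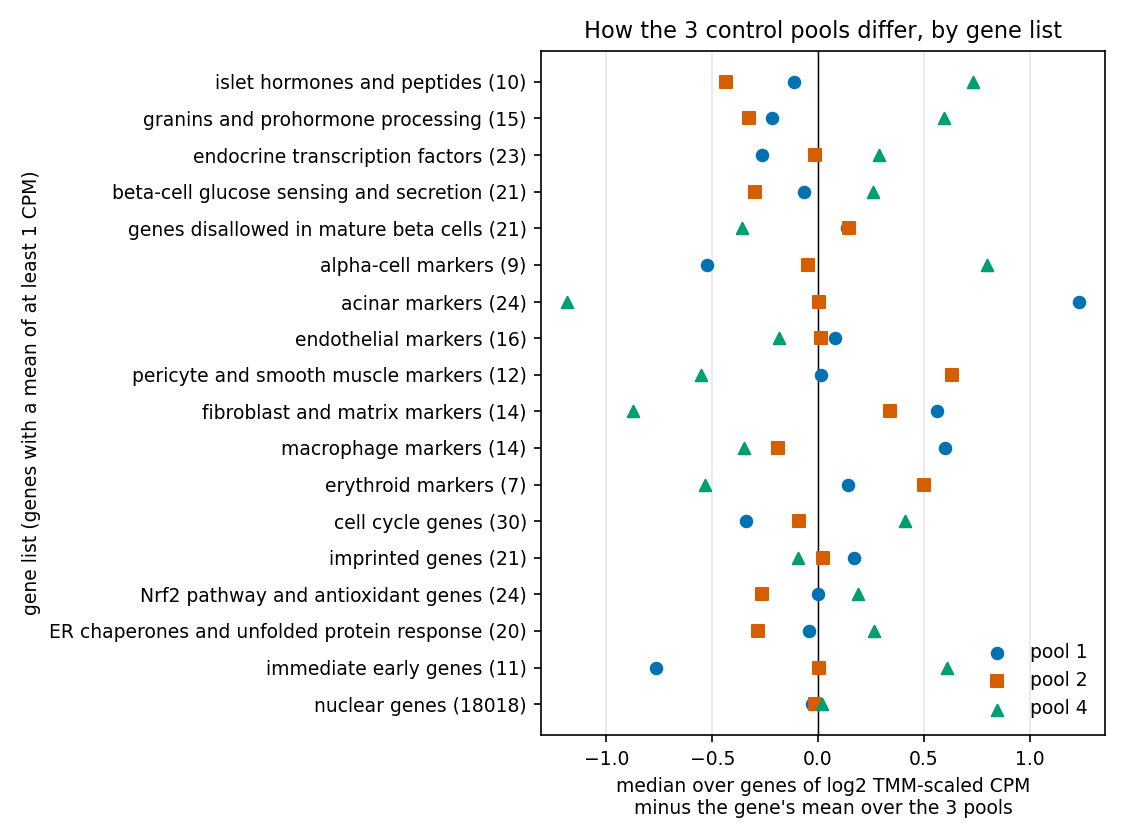
Median over the genes of each list (y axis, gene number in brackets) of the log2 TMM-scaled CPM minus the gene's own mean over the 3 pools (x axis), 1 symbol per pool. Acinar markers lie at 1.23 in pool 1 and -1.19 in pool 4, and hormones at 0.73 in pool 4, while all nuclear genes lie within 0.03 of 0.

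The genes with the highest spread fell into recognisable kinds. Uty, Ddx3y and Xist came first: Uty had 2, 716 and 20 counts and Ddx3y 6, 651 and 22, high in pool 2, and Xist 51543, 1108 and 66420, low in pool 2. The value of Uty in pool 1 lies under the limit of 3 counts. A set of genes was high in pool 1 alone. Gfpt2, an enzyme of hexosamine synthesis, stood at 58.4, 3.16 and 3.25 TMM-scaled CPM, Flnc (filamin C) at 296, 22.03 and 18.3, and the chemokine gene Ccl2 at 131, 18.9 and 12.8.

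Further genes with their highest value in pool 1 were Ptgs2 (cyclooxygenase 2) at 79.9, 3.97 and 11.9, Stc1 (stanniocalcin 1) at 223, 31.5 and 43.1, Lox (lysyl oxidase) at 88.5, 23.9 and 9.93 and Neurl3 at 67.2, 6.68 and 20.9 TMM-scaled CPM. Pnliprp1 from the acinar list was there as well. The metallothionein genes, whose products bind zinc and other metals, summed to 2453, 261 and 1038 nuclear TPM. Mt1 stood at 1793, 201 and 789.5 and Mt2 at 656, 50.4 and 243, both highest in pool 1 and lowest in pool 2. Mt3, the third of them, was low at 4.96, 8.99 and 5.24. Rn7s1, a 7SL-type RNA of the signal recognition particle with near-identical copies, stood at 26.5, 44.2 and 4.78 TMM-scaled CPM, lowest in pool 4, and its value is uncertain.

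**Figure D5:**
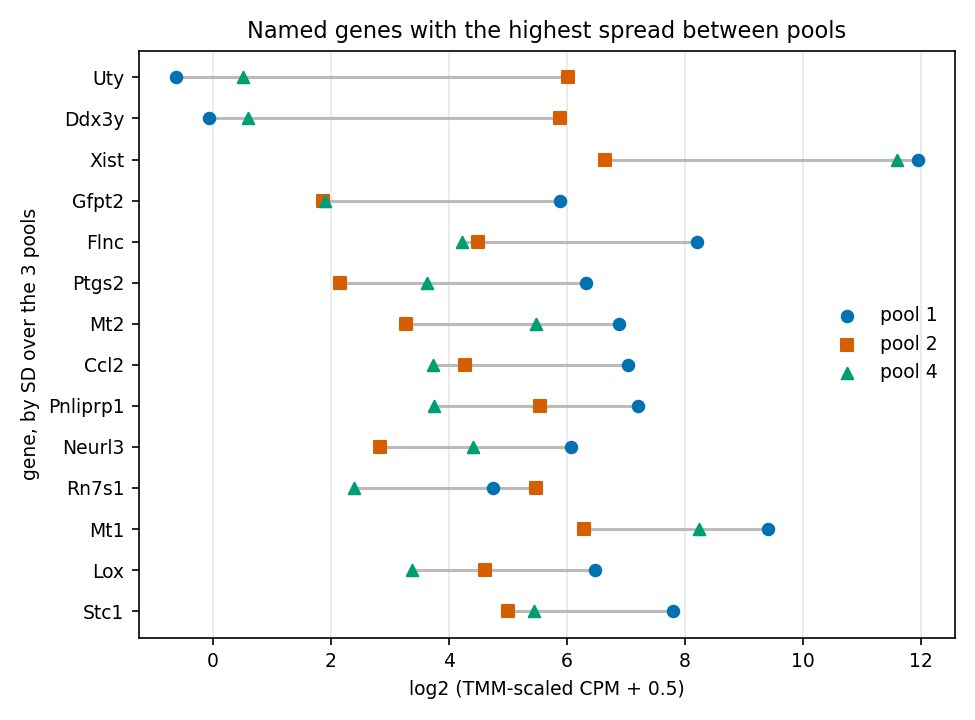
Of the 15 genes with the highest SD between pools, the 14 named in the text (y axis) and their log2 (TMM-scaled CPM + 0.5) in each pool (x axis), with a grey line from the lowest to the highest pool. Pool 1 is highest for 11 of the genes, while Uty, Ddx3y and Rn7s1 are highest in pool 2.

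At the other end, some genes were nearly constant. Snx5 (a sorting nexin) stood at 46.6, 46.2 and 46.4 TMM-scaled CPM, Oat (ornithine aminotransferase), itself on the list of disallowed genes, at 24.9, 25.3 and 24.97, and Rpl5, a ribosomal protein, at 119, 117 and 119.7. Ctps, Tsr1, E2f5, R3hdm1, Nhlrc2 and Tbc1d10b were the others named by the rule along with Gpx1. Between these and the pool-specific genes, the abundant housekeeping transcripts Eef1a1, at 3003, 2783 and 3459 nuclear TPM, Actb, at 5279, 4119 and 5193, and Fth1 (ferritin heavy chain), at 1394, 1312 and 1274, varied by 1.24, 1.28 and 1.09-fold, well under the 3.19-fold of Ins2 on the same scale.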

How the data were processed

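RNA of pancreatic islets from 7-day-old Nrf2lox/lox mice was analysed in 3 pools of 5 animals each. Per the labels' protocols, ribosomal RNA was depleted before library construction. The files deposited by the authors hold raw counts for every gene. The submitters' processing notes list featureCounts (Subread 1.5.2), STAR 2.5.2b, Trimmomatic 0.36 and bcl2fastq 2.20. The annotation release, strand setting and treatment of reads with several matches are not given in the sources used here. Those notes list a more recent mouse build, but 44858 of 49056 gene IDs (91.4%) have the start and end of GENCODE M21, so coordinates are given in GRCm38 as in the files. The count files and their exon lengths held 49315 mouse genes and 1 Cre entry, which was left out. Symbols came from a gene name table that matched 48970 IDs.

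Nuclear TPM was computed over 43097 nuclear genes of at least 200 bases, and a protein-coding denominator (21724 genes) was added after seeing the data. Spread was computed with edgeR 4.0.16 (R 4.3.3) from TMM-scaled counts of 18018 genes with a mean of at least 1 CPM, with a pseudocount of 0.5 on the log2 scale, and Python 3.11.15 (pandas 2.3.3, numpy 2.4.6, scipy 1.17.1, matplotlib 3.10.9). The calculations were tested on simulated data. Separate cultures or animals behind the pools are named only as pools, so the spread is that between pools.

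Named genes were the hormone genes, Nfe2l2 and Keap1, the 30 genes with the highest mean nuclear TPM, up to 8 members of each list by mean level plus members at 0 in every pool, and the 15 genes with the highest and 10 with the lowest SD of log2 TMM-scaled CPM at a mean of at least 20. Some further members, shown where they differ from their list, and Mir375 were picked outside this rule with their values in view. Some genes that the rule names are not reported here. The members and lists were chosen with earlier results of these data known. The Y-linked, metallothionein, heat shock, histone, collagen, respiratory chain and ribosomal protein lists were added after seeing the data. Promoter sequences are from RefSeq (GRCm38.p6). Alternatives were other denominators, length rules, scalings and filters, and leaving out each pool.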

Additional observations from a re-analysis of the deposited data

How the results depend on the processing

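Of 63 recomputed values of the main measures, 51 stayed within 1 SD over the pools, or within 1.5 times for counts of genes and for the coefficient of variation, and 12 did not. With 3 pools, leaving out 1 cannot move a mean share or ratio by 1 SD. Those values were thus bound to be among the 51 and do not measure stability. The mitochondrial share was 58.1% of TPM over all mouse genes in place of 36.5% of counts. The hormone share was 5.32% of counts not divided by length, against 15.03% of nuclear TPM. The 10 highest genes held 61.3% over all mouse genes, 17.3% of counts not divided by length and 22.4% over protein-coding genes (chosen after seeing the data), against 39.2%. The non-endocrine lists held 0.274% over all mouse genes and 1.13% over protein-coding genes, against 0.751%. The ratio of Ins1 to Ins2 was 0.674 from counts. Genes over 2-fold between pools numbered 2518 of 12521 at a mean of at least 5 CPM, against 1133 of 7439 at a mean of at least 20. They numbered 416 to 665 when a pool was left out, which leaves 2 values per gene. Leaving out each pool gave 28.8% to 47.4% for the mitochondrial share, 2.60% to 4.57% for insulin, 10.4% to 18.1% for hormones, 38.2% to 40.5% for the 10 highest genes, 0.0766% to 0.175% for acinar markers, 0.675% to 0.868% for the non-endocrine lists, 0.831 to 0.900 for Ins1 to Ins2, 20039 to 20207 genes at 1 TPM and 0.317 to 0.339 for the coefficient of variation. For all 454 genes of the lists and of the naming rule, named in the text or not, the mean log2 level stayed within its SD without TMM scaling. The scaling factors balance out over the pools, so this mean could hardly move, and the comparison does not measure stability. No paired analysis was possible because a single group was described and no test was made. With 3 pools the SD itself is imprecise, and a count of 0 allows up to 0.257 CPM of nuclear counts.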

Other observations

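Protein-coding genes held 84.7%, 81.0% and 89.2% of nuclear counts in pools 1, 2 and 4. Processed pseudogenes, copies of mRNAs in the genome, held 1.13%, 0.960% and 0.886% of nuclear TPM, and antisense genes 1.21%, 0.991% and 0.975%. Immunoglobulin constant genes held 0.0114%, 0.0109% and 0.00895% of nuclear TPM.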
